A study of Mus musculus with 9 samples.

Results

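The cells described here are type 2 and monocyte-derived dendritic cells of the mouse liver, chosen by the measured transcripts of each cell in a single-cell RNA-seq data set. A cell was a member when it had at least 200 genes, at least 2 UMIs (unique molecular identifiers, which count captured RNA molecules) summed over Cd209a, Flt3, Mgl2 and Clec4b1, and at least 5 UMIs of the MHC class II gene H2-Ab1. It also had to lack Xcr1, Clec9a, Cd79a, Cd3e and Siglech, to hold fewer than 5 UMIs of C1qa, C1qb and C1qc together, and to show fewer than 3 of the monocyte genes Chil3, F13a1, Fn1, Ly6c2 and Ccr2. These thresholds chose 95 of the 8562 cells in the count table. The levels of the genes named in the rule are therefore a description of the selection and not a result.

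Dendritic cells capture proteins in tissue, load their fragments on MHC class II molecules and present them to helper T cells. Type 2 conventional dendritic cells arise from Flt3-dependent precursors, whereas monocyte-derived dendritic cells arise from Ccr2-positive monocytes that enter inflamed tissue and take up a similar antigen-presenting state. Both kinds carry the C-type lectins Cd209a, Mgl2 and Clec4b1, so that transcripts of these genes mark the pair but separate it poorly. After an encounter with antigen or inflammation, dendritic cells switch on Ccr7, the chemokine receptor that guides them to lymph nodes, together with Fscn1, Ccl22 and other maturation genes.

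The question of the design was how liver cells other than hepatocytes respond when constitutively active YAP, a co-activator of transcription, is switched on in hepatocytes. All mice were C57BL/6 and carried the ROSA26-rtTA-IRES-EGFP allele, a doxycycline-dependent transactivator that Alb-Cre releases in hepatocytes according to the methods of the study. WT mice (2 libraries) had no tetYAP allele and ate doxycycline food for 7 days, YAP7d mice (3 libraries) carried tetYAP and received the same food for 7 days, and YAP3d mice (4 libraries) carried tetYAP and received it for 3 days. Whole livers were digested with collagenase and each library was counted as 1 replicate. YAP7d and WT mice were matched for doxycycline, whereas in the comparison of YAP3d with WT the allele and the length of feeding cannot be told apart. No source used here says whether libraries came from separate mice processed on separate days, so the p-values measure the spread between libraries only.

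The threshold of 200 genes kept 8527 cells and removed 35. The median depth over all cells of a library ranged from 3231 to 11471.5 UMIs and was highest in YAP7d, but the median depth of member cells, 6900.5 to 11693 UMIs, did not follow that order. The pseudogene Gm10709 split the libraries: it was present in YAP3d replicates 1 and 2 and in the 3 YAP7d libraries and near 0 in the WT libraries and YAP3d replicates 3 and 4, with 290 to 484 CPM (counts per 1000000 UMIs) in the members of the former and 0 to 24.7 CPM in those of the latter. The cause of this split was not tested, and results that moved with it are given with a Gm10709 term in the fit. Scrublet called 60 doublets, of which 1 was a member, and 46 barcodes occurred in more than 1 library, which touched 1 member.

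The member cells were deep and rich in MHC class II transcripts. They held 3385 to 19978 UMIs (median 10710) and 1347 to 4344 genes, with at most 10.2% mitochondrial counts. H2-Ab1 ranged from 5 to 328 UMIs per cell with a median of 145. Cd209a, which encodes a DC-SIGN family lectin, was found in 78 of the 95 cells, Clec4b1 in 63, the receptor tyrosine kinase Flt3 in 53 and the galactose lectin Mgl2 in 35. A minority of 15 cells showed 1 of these 4 genes alone, 35 showed 2, 36 showed 3 and 9 showed all 4. Among genes of the monocyte part of the rule, Ccr2, the receptor for monocyte-recruiting chemokines, was present in 62 members, Chil3 in 18 and Ly6c2 in 17.

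Few cells lay near the thresholds on the markers and H2-Ab1, and many near the exclusions. The marker sum was exactly 2 in 7 members (median H2-Ab1 48 UMIs), and 10 further cells (median H2-Ab1 35.5 UMIs) failed only because that sum was 1. H2-Ab1 stood at 5 to 9 UMIs in 3 members, and 2 cells failed only because they had 3 or 4. Of the members, 28 had 2 monocyte genes, 1 short of exclusion, and 61 had 1 to 4 C1q UMIs. Larger numbers were removed by the exclusions alone: 89 cells by 5 or more C1q UMIs, 46 by Xcr1 or Clec9a, 55 by Cd79a, Cd3e or Siglech and 22 by 3 or more monocyte genes. The C1q exclusion alone removed 67 cells in YAP7d, 16 in YAP3d and 6 in WT. Cells with 5 or more C1q UMIs that lacked Cd79a, Cd3e and Siglech also differed in number. There were 166, 213 and 751 in the YAP7d libraries, 11, 73, 33 and 69 in YAP3d and 32 and 83 in WT. The exclusion has no upper limit on C1q, so the cells it removed need not lie near the boundary. A rule in UMIs also depends on depth. When cells were thinned to 2000 UMIs and the 640 shallower ones left out (282 in WT, 358 in YAP3d and 0 in YAP7d), 106 of 7887 cells met the same thresholds and 48 of them were among the 95.

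Levels are given below as CPM of all UMIs in the member cells of a library, and comparisons of members with other classes are descriptions without a test, because the rule set them. Cd209a (chromosome 8, 3743395 to 3748984 of GRCm38.p6) averaged 859 ± 297 CPM (SD, n = 9 libraries) in members, with 1418 and 996 CPM in the WT libraries, 725, 1008, 989 and 465 CPM in YAP3d and 962, 576 and 591 CPM in YAP7d. It reached 84.3 CPM in cells of the monocyte rule (3 or more of the 5 monocyte genes), 11.4 CPM in cells of the type 1 conventional dendritic cell (cDC1) rule and 8.92 CPM in C1q-high macrophages. Flt3 averaged 125 CPM in members, below the 192 CPM of cDC1-rule cells, in which Flt3 is a defining receptor. H2-Ab1 averaged 13899 CPM in members and 14401 CPM in cDC1-rule cells, against 2256 CPM in C1q-high and 1526 CPM in monocyte-rule cells.

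**Figure D1:**
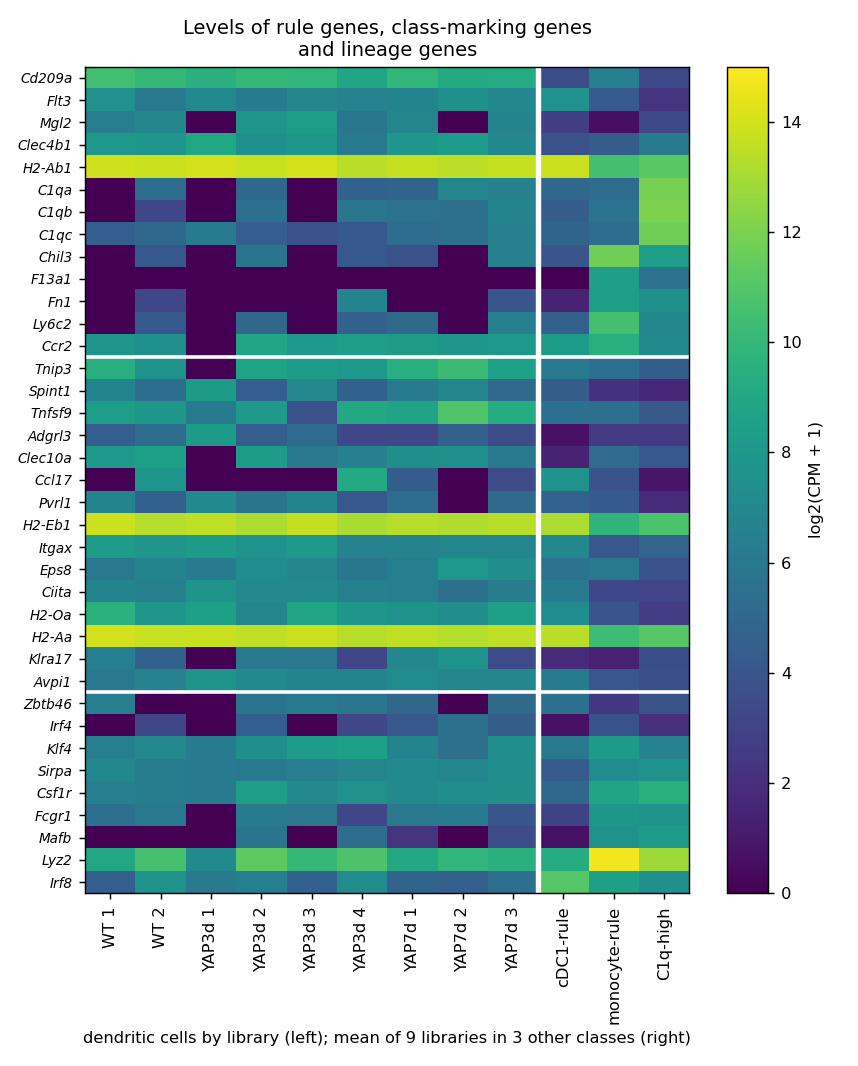
Levels of the genes of the membership rule (top block), of the 15 genes with the largest ratio of members to all other cells (middle block) and of lineage genes (bottom block), as log2(CPM + 1), in the dendritic cells of each of the 9 libraries and as the mean over libraries in 3 other classes. H2-Ab1 was high in members and in cDC1-rule cells, and Lyz2 was far lower in members than in monocyte-rule cells.

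Several genes outside the rule were far higher in members than in other cells. The largest ratios to all other cells were those of Tnip3, an inhibitor of NF-kB signalling, with 461 CPM and a 23.6-fold ratio, Spint1, a protease inhibitor, with 93.1 CPM and 22.7-fold, and Tnfsf9, the ligand of the T cell co-stimulator 4-1BB, with 488 CPM and 22-fold. The integrin Itgax (CD11c) was 8.8-fold and the lectin Clec10a 13.1-fold over other cells. The MHC class II chain genes H2-Eb1 and H2-Aa, their transactivator Ciita and the peptide-loading modulator H2-Oa were 9.2-, 8.1-, 8.7- and 8.2-fold higher. The nearest class shared the chain genes, since H2-Eb1 and H2-Aa stood at 9241 and 11060 CPM in cDC1-rule cells against 10873 and 12813 CPM in members. It shared others in part: Itgax, Ciita and H2-Oa stood at 125, 70.9 and 155 CPM there, against 191, 110 and 323 CPM in members. Tnip3, Spint1, Tnfsf9 and Clec10a were far lower in cDC1-rule cells, at 71.5, 20.2, 44.1 and 1.66 CPM. Not all of these ratios were shared by the libraries. Tnip3 ranged from 0 to 1199 CPM and Tnfsf9 from 12.2 to 1868 CPM, both highest in YAP7d replicate 2 with its 5 members. The T cell chemokine Ccl17 stood at 580 CPM in YAP3d replicate 4 and 222 CPM in WT replicate 2 and at no more than 20 CPM in the other 7, with 68 of 71 and 27 of 27 UMIs in 1 cell each. Adgrl3 rested mainly on 290 CPM in YAP3d replicate 1, which had 2 member cells.

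The label was checked against markers that the rule did not use. Zbtb46, a transcription factor of conventional dendritic cells, was detected in 25 of the 95 members with 37 UMIs in all, and Irf4, which type 2 cells need, in 14 members with 14 UMIs. The 22-gene cDC2 identity list summed to 4708 CPM in members, 5268 CPM in cDC1-rule cells, 3154 CPM in monocyte-rule cells and 2220 CPM in C1q-high cells. The 16-gene monocyte-derived list summed to 5762 CPM in members, against 39469 CPM in monocyte-rule, 13810 CPM in C1q-high and 1661 CPM in cDC1-rule cells. Lysozyme (Lyz2) reached 145 to 2362 CPM in members and 27007 CPM in monocyte-rule cells. The cDC2 identity list was thus no higher in members than in cDC1-rule cells, so it does not check the type 2 part of the label. The monocyte-derived list lay between cDC1-rule and C1q-high cells. The Kupffer cell list summed to 0 to 180 CPM in the libraries against 7638 CPM in C1q-high cells, the cDC1 list to 452 CPM against 4241 CPM in cDC1-rule cells, and the hepatocyte list to 0 to 65.3 CPM. The T, NK and B cell lists reached at most 24.7, 90.6 and 65.3 CPM and the plasmacytoid list 334 CPM. The endothelial list stood at 841 CPM in YAP3d replicate 4 (316 CPM without the cells described below) and at 32.5 to 72.5 CPM in the other YAP3d libraries, and was higher in WT, at 129 and 222 CPM, than in YAP7d, at 32.1, 23.1 and 25.7 CPM, without overlap. The Kupffer cell list also separated these groups, at 0 and 74.1 CPM in WT and 84.2, 92.2 and 180 CPM in YAP7d. The neutrophil list stood at 647 CPM in YAP7d replicate 3 and 0 to 204 CPM elsewhere. The cDC1 list moved with the groups, at 559 and 939 CPM in WT, 376 to 452 CPM in YAP3d and 231 to 357 CPM in YAP7d, and the part of these lists in the differences below was not tested. Cd4, Cd8a and Klrb1c had no UMI in any member, which for a library allows up to 12.0 CPM in YAP7d replicate 1 and up to 217 CPM in YAP3d replicate 1 (3 UMIs over all member UMIs, counting error only).

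Pooled over libraries, members with Flt3 differed from those without it in several genes the rule did not use. Over the pooled UMIs of 53 Flt3-positive and 42 Flt3-negative cells, Lyz2 stood at 463 and 1940 CPM (478 and 772 CPM without the cells that stand apart, described below), the phospholipid transfer protein gene Pltp at 52.2 and 249 CPM and the macrophage growth factor receptor gene Csf1r at 112 and 227 CPM (117 and 180 CPM without those cells). In the other direction, Tnfsf9 stood at 612 and 266 CPM, H2-Oa at 355 and 188 CPM and the protease inhibitor gene Cst3 at 6486 and 4001 CPM. Averaged by library, Tnfsf9 had 572 CPM (23.1 to 1494.5) and 385 CPM (0 to 2279.5). H2-Oa had 372 CPM (189 to 773) and 174 CPM (0 to 491), so the ranges of both genes overlapped. The monocyte-derived list summed to 5168 CPM in Flt3-positive and 7515 CPM in Flt3-negative cells (5393 and 6060 CPM without those cells), and the cDC2 identity list to 5206 and 4379 CPM (5198 and 4723 CPM). By library and without those cells the monocyte-derived list had medians of 4683 and 4682 CPM, with ranges of 2568 to 8615 and 2296 to 8564 CPM, so the pooled gap was not seen between library medians. Detection of Flt3 at 1 or 2 UMIs per cell depends on depth, both sets share libraries, and no test was made between them. The MHC class II list hardly separated them, at 62257 and 59969 CPM.

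A set of 9 members stood apart from the other 86, and 5 of them came from YAP3d replicate 4. In that library 1 cell held 203 UMIs of the matrix gene Dcn, 44 of Col3a1 and 54 of Clec3b beside 5 UMIs of H2-Ab1, 1 of Cd209a and 1 of Mgl2, a profile of stromal transcripts that goes against the label. A second held 64 UMIs of the endothelial list, with 37 of Dnase1l3 and 29 of Aqp1, which are not on that list, beside 78 of H2-Ab1 and 11 of Cd209a, and was the Scrublet doublet. No other member had more than 1 UMI of the stromal genes or more than 10 of the endothelial list. Mature cells by Ccr7 were 3: in YAP3d replicate 4, 1 cell with 32 UMIs of Ccr7, 13 of the actin bundler gene Fscn1 and 67 of Ccl5, and 1 with 83 of Ccr7, 268 of Ccl5 and 21 of Il12b, the interleukin-12 subunit gene, and in YAP7d replicate 1 a cell with 8 of Ccr7 and 44 of Ccl5. None of the other members had more than 1 UMI of Ccr7. The 4 cells with at least 50 UMIs of Lyz2 had 144 (WT replicate 2), 140 (YAP3d replicate 2), 71 (YAP3d replicate 3) and 169 UMIs (YAP3d replicate 4), while the highest of the others had 25. The 86 other members had a median H2-Ab1 of 150 UMIs and at least 19. These cut-offs were set after the values were seen, and values without the 9 cells are given beside the lists and genes that moved with them. Medians without them cover fewer genes, since 1811 passed the filter on low counts.

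**Figure D2:**
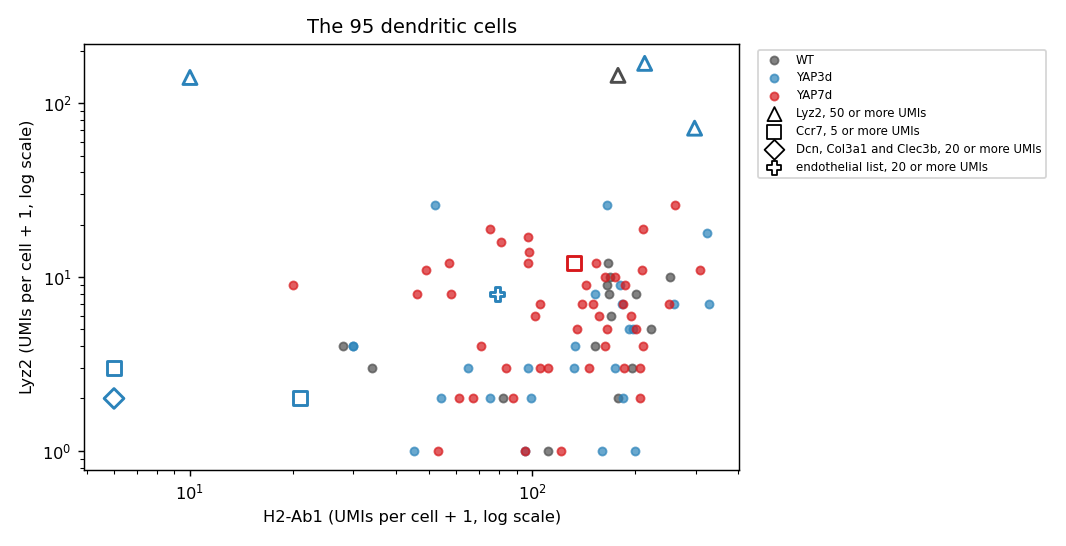
UMIs of H2-Ab1 (horizontal axis) and Lyz2 (vertical axis), each plus 1 on a log axis, in each of the 95 dendritic cells, coloured by group, with open symbols for the 9 cells that stood apart. The 3 lowest H2-Ab1 values belonged to a cell with stromal transcripts, a Ccr7-rich cell and a Lyz2-rich cell, and 4 cells lay above 50 UMIs of Lyz2.

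The share of dendritic cells in the liver cell suspension was examined first. Members made up 0.768% (4 of 521 cells, exact Clopper-Pearson 95% interval 0.210 to 1.95%) and 0.847% (12 of 1416, 0.439 to 1.48%) in the WT libraries. In YAP3d they made up 0.712% (2 of 281), 2.04% (9 of 442), 1.90% (8 of 422) and 0.510% (13 of 2551). In YAP7d they made up 3.67% (22 of 599, 2.32 to 5.51%), 1.08% (5 of 461) and 1.09% (20 of 1834, 0.667 to 1.68%). The 3 YAP7d libraries lay above both WT libraries, and the YAP3d libraries spread on either side of WT. WT averaged 0.808 ± 0.0564% (SD, n = 2), while YAP3d averaged 1.29 ± 0.789% (n = 4) and YAP7d 1.95 ± 1.49% (n = 3).

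None of the differences in share exceeded the spread between libraries. YAP7d exceeded WT by 1.14 percentage points with an exact two-sided permutation p of 0.5, and 0.1 was the smallest p that 3 against 2 libraries allow. YAP3d exceeded WT by 0.481 points (exact permutation p 0.467, smallest possible 0.0667) and YAP7d exceeded YAP3d by 0.661 points (exact permutation p 0.514, smallest possible 0.0286). An exact permutation test over the 3 groups gave a p of 0.540, and these 4 tests form 1 family of which none passed. YAP7d replicate 1 decided the last difference, which was -0.201 points without it. With cells thinned to 2000 UMIs before the rule was applied, which removed shallow cells from the denominators of WT and YAP3d but not of YAP7d, the means were 0.963, 1.15 and 2.11% in WT, YAP3d and YAP7d, with an exact permutation p of 0.3 between YAP7d and WT.

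Against the other mononuclear phagocytes the order was different. The members, cDC1-rule, monocyte-rule and C1q-high cells together numbered 1974, of which 1459 lay in YAP7d, 336 in YAP3d and 179 in WT. Members were 8.89 and 8.96% of these cells in WT, 9.52, 6.16, 17.0 and 10.7% in YAP3d and 8.84, 2.07 and 2.06% in YAP7d. YAP7d replicates 2 and 3 were the lowest libraries, while YAP7d replicate 1 lay just under WT. The mean of YAP7d, 4.32%, differed from the 8.92% of WT by -4.60 points (exact permutation p 0.2) and from the 10.8% of YAP3d by -6.52 points (exact permutation p 0.143), and neither passed the test. The number of C1q-high cells in a library, 11 to 751, sets this denominator.

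**Figure D3:**
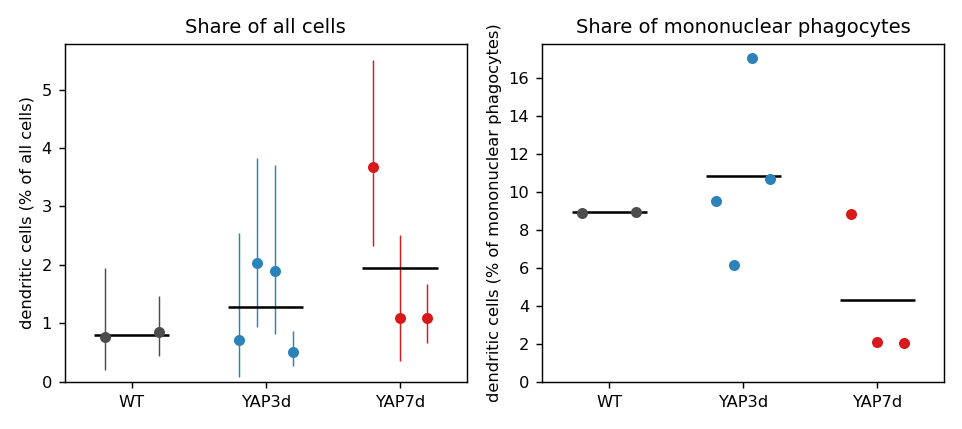
Dendritic cells as a percentage of all cells with at least 200 genes (left, error bars are exact 95% binomial intervals) and of mononuclear phagocytes (right), by group, with 1 point per library and a line at the group mean. YAP7d replicate 1 reached 3.67% of all cells, and YAP7d replicates 2 and 3 had about 2% of phagocytes.

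For levels of genes, UMIs were summed over the member cells of a library and tested with edgeR in the 7 libraries that held at least 5 members. WT replicate 1 (4 cells) and YAP3d replicate 1 (2 cells) did not enter, so WT was 1 library in these fits and its spread was taken from the other groups; values below are given for all 9 libraries. Among 2874 genes tested, edgeR called 0 (0%) between YAP7d and WT, 0 (0%) between YAP3d and WT and 0 (0%) between YAP7d and YAP3d at an adjusted p below 0.05. At an unadjusted p below 0.05 the numbers were 138, 81 and 179 genes. DESeq2 called 0, 0 and 2 genes, the 2 being Dnase1l3 and Malat1. With all 9 libraries and 1724 genes edgeR again called 0 in each comparison, with 111, 63 and 115 genes at an unadjusted p below 0.05, and without the 9 cells that stood apart it called 0 in each of 1811 genes. The count depended on the fit. With no filter on low counts edgeR called 23, 6 and 66 genes in the 3 comparisons, with levels from held-out UMIs 34, 0 and 12, and with the replicate number as a block 65, 27 and 36, although the labels do not pair the libraries. Leaving out YAP3d replicate 2 gave 7 calls between YAP7d and YAP3d, and leaving out YAP7d replicate 1 gave 2 between YAP7d and WT. The simulated test at this size recovered 37.8% of genes changed by a log2 fold of 2 between YAP7d and WT and 77.3% between YAP7d and YAP3d, and 2.16 and 2.7% of those changed by a log2 fold of 1. Most changes of a log2 fold of 1 would therefore have been missed. The median log2 difference over all genes tested was -0.00050, 0.04 and -0.05 in the 3 comparisons.

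Values were also compared for overlap between the groups. Over all 9 libraries, 735 of the 2874 genes (25.6%) had values that did not overlap between the 3 YAP7d and the 2 WT libraries, 277 (9.64%) did not overlap between YAP3d and WT, and 199 (6.92%) did not overlap between YAP7d and YAP3d. The non-overlapping genes named below should be read beside these shares, which are not comparable with each other because the numbers of libraries differ.

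Among genes named by the rule for the smallest p-values, those higher in YAP7d than in YAP3d were chemokines. Ccl9 (chromosome 11, 83572917 to 83578636), a CC chemokine that attracts CCR1-positive myeloid cells, had 129 and 296 CPM in WT, 217, 271, 281 and 229 CPM in YAP3d and 581, 968 and 714 CPM in YAP7d. The YAP7d libraries lay above the 6 others. The log2 difference was 1.43 ± 0.31 (SE) against YAP3d with an edgeR adjusted p of 0.420, and 1.15 ± 0.45 against WT with an edgeR adjusted p of 0.970. With all 9 libraries these were 1.47 with an adjusted p of 0.122 and 1.59 with an adjusted p of 0.214. Its neighbour Ccl6 (83587886 to 83593087) had 129 and 280 CPM in WT, 652, 195, 171 and 196 CPM in YAP3d and 429, 646 and 488 CPM in YAP7d, and differed by 1.35 ± 0.31 from YAP3d (edgeR adjusted p 0.429). The 2 cells of YAP3d replicate 1, which did not enter that fit, overlapped YAP7d, and the value with all 9 libraries was 1.07. Monocyte-rule cells carried more of both, with 973 CPM of Ccl9 and 1262 CPM of Ccl6.

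The genes lower in YAP7d than in YAP3d rested in part on a few cells. The nuclear non-coding RNA Malat1 had 10742 and 12591 CPM in WT, 20216, 14824, 18963 and 28212 CPM in YAP3d (13318 CPM in replicate 4 without the cells that stood apart) and 9371, 8693 and 8432 CPM in YAP7d. YAP3d lay above both other groups and YAP7d below both, with a log2 difference of -1.35 ± 0.29 (edgeR adjusted p 0.420), -1.29 with all 9 libraries (edgeR adjusted p 0.0713) and -0.92 without the cells that stood apart. In C1q-high cells Malat1 fell from 28732 and 23214 CPM in WT to 8279, 7441 and 6851 CPM in YAP7d (edgeR adjusted p 0.0303). Dnase1l3, a secreted nuclease made by endothelial cells and some dendritic cells, had 21.5 and 115 CPM in WT, 72.5, 21.7, 110 and 441 CPM in YAP3d and 0, 0 and 5.14 CPM in YAP7d. It differed by -6.19 ± 1.23 (edgeR adjusted p 0.420) and by -4.96 without the cells that stood apart, since 37 UMIs of Dnase1l3 lay in the cell with endothelial transcripts. In C1q-high cells Dnase1l3 fell from 906 and 891 CPM in WT to 19.1, 8.10 and 38.6 CPM in YAP7d (edgeR adjusted p 0.0304). The endothelial list stood at 129 and 222 CPM in WT members and 23.1 to 32.1 CPM in YAP7d members. The immune non-coding transcript AW112010 had 301 and 173 CPM in WT, 290, 173, 208 and 865 CPM in YAP3d (142 CPM in replicate 4 without the cells that stood apart) and 80.2, 69.2 and 61.7 CPM in YAP7d. The YAP7d libraries lay below the 6 others, with a log2 difference from YAP3d of -2.71 ± 0.62 (edgeR adjusted p 0.429), and of -1.46 without those cells.

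Between YAP7d and WT the smallest p-values belonged to an RNA polymerase subunit, a histone and ribosomal pseudogenes. Polr2l had 43.0 and 239 CPM in WT, 0, 86.7, 110 and 81.6 CPM in YAP3d and 40.1, 46.1 and 41.1 CPM in YAP7d. It differed by -2.65 ± 0.47 (edgeR adjusted p 0.146), but the WT library that did not enter the fit lay within YAP7d. Hist1h2ap, a replication-dependent histone H2A gene, had 642 CPM in WT replicate 2 and 0 CPM in WT replicate 1, and its difference of -5.60 ± 1.03 (edgeR adjusted p 0.146) rests on that 1 library. Rpl23a-ps3 (chromosome 14, 34170641 to 34171173), a processed copy of a ribosomal protein gene that can share reads with its parent, had 816 and 1120 CPM in WT, 870, 444, 1062 and 702 CPM in YAP3d and 337, 300 and 344 CPM in YAP7d. The difference of -1.91 ± 0.45 (edgeR adjusted p 0.467) became -0.70 with a term for the Gm10709 split, and Rpl10-ps3 went from -2.36 to -0.81. The counts of such copies are uncertain, and their libraries and the Gm10709 libraries are largely the same.

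S100a4, the gene of a calcium-binding protein of motile myeloid cells, had 859 and 412 CPM in WT, 580, 1528, 635 and 759 CPM in YAP3d and 1748, 1683 and 1742 CPM in YAP7d. The 3 YAP7d libraries lay close together and above the 6 others, by a log2 difference of 1.90 ± 0.49 from WT (edgeR adjusted p 0.467) and 0.78 ± 0.31 from YAP3d (edgeR adjusted p 0.746). Galectin-3 (Lgals3), of the same list, had 580 and 807 CPM in WT, 652, 2189, 635 and 612 CPM in YAP3d and 1896, 2237 and 1952 CPM in YAP7d, and S100a6 had 1074 and 1285 CPM in WT against 2409, 2928 and 1896 CPM in YAP7d. YAP3d replicate 2 lay nearer to YAP7d than to the other YAP3d libraries in S100a4 and Lgals3. Members of the list with higher counts differed in sign. Tmsb10, which binds actin monomers, had 3910 and 6036 CPM in WT and 2798, 3205 and 3422 CPM in YAP7d, lower without overlap (-1.10 ± 0.34, edgeR adjusted p 0.559), whereas Crip1 had 2922 and 2742 CPM in WT and 3832, 4934 and 3715 CPM in YAP7d (0.42 ± 0.42). The actin gene Actg1 and the profilin gene Pfn1 overlapped and differed by -0.40 and -0.37. The S100, galectin and motility list of 17 genes as a whole had a median log2 difference of 0.12 between YAP7d and WT beside -0.00050 over all genes, with 10 positive, 7 negative and 0 called, and a median of 0.42 with all 9 libraries.

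**Figure D4:**
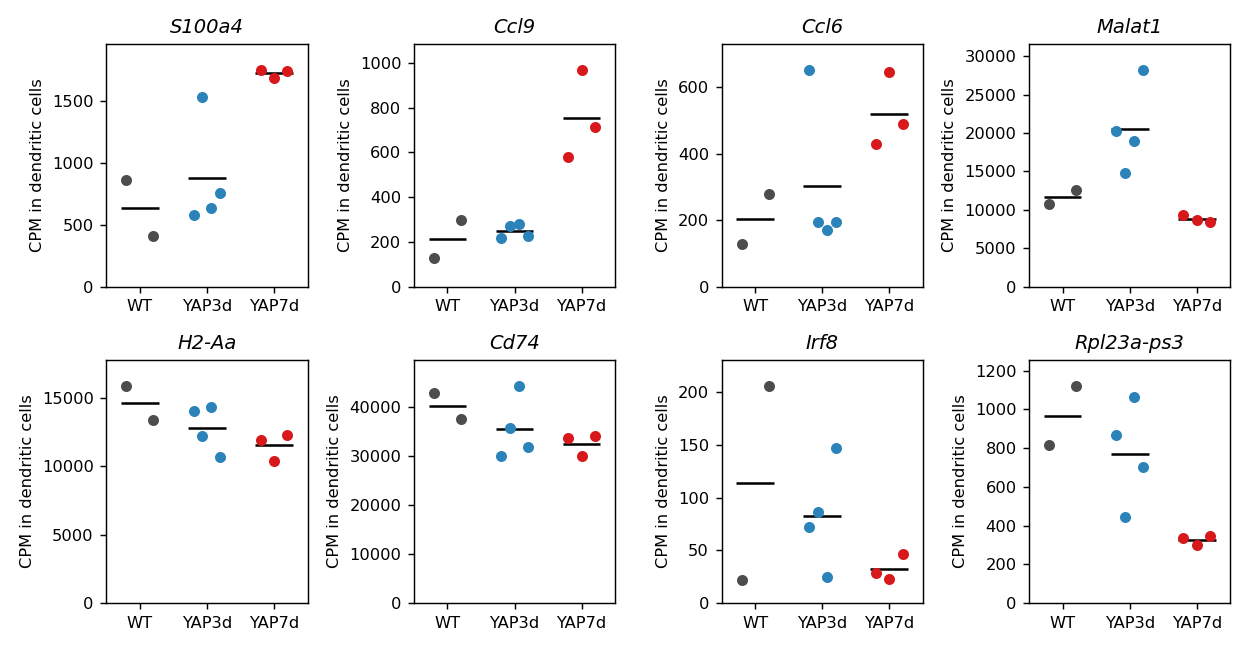
CPM of 8 genes in the dendritic cells of each library (points) with the group mean (line), for WT (n = 2), YAP3d (n = 4) and YAP7d (n = 3). YAP7d lay above the other groups for S100a4 and Ccl9 and below them for Malat1 and Rpl23a-ps3, and none of the 8 genes passed the adjusted threshold.

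Genes of the YAP3d against WT comparison with the smallest p were Tacc1, Ppm1m, Hist1h2ap, Batf3 and Tppp3, each with an edgeR adjusted p of 0.999. The cytoskeletal gene Tacc1 had 64.5 and 8.23 CPM in WT and 97.5 to 217 CPM in YAP3d, a log2 difference of 3.45 ± 0.88. This size compares YAP3d with WT replicate 2, which had 1 UMI of Tacc1, and not with the higher WT replicate 1. Batf3, a transcription factor required by cDC1 and also expressed in other dendritic cells, had 193 and 264 CPM in WT, 290, 130, 73.3 and 81.6 CPM in YAP3d and 120, 69.2 and 66.8 CPM in YAP7d. It differed from WT by -1.56 ± 0.47 in YAP3d and by -1.69 ± 0.45 in YAP7d (edgeR adjusted p 0.472), and the YAP7d libraries did not overlap WT. Ppm1m, a phosphatase gene, differed by -1.78 and Tppp3, a tubulin-binding protein gene, by 3.82, and neither had a UMI in YAP3d replicate 1. Ppm1m had 64.5 CPM in WT replicate 1 and overlapped, so its difference compares YAP3d with WT replicate 2. Tppp3 had 0 and 1 UMIs in WT, and 14 of its 16 UMIs in YAP3d replicate 4 lay in cells that stood apart.

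No MHC class II gene passed the test. Of 13 MHC class II genes 9 were tested and 0 passed in either direction in each comparison. Their median log2 difference was -0.34 between YAP7d and WT, -0.08 between YAP3d and WT and -0.27 between YAP7d and YAP3d (-0.28, 0.24 and -0.48 without the cells that stood apart). Between YAP7d and WT 9 of the 9 genes had a negative difference, and between YAP7d and YAP3d 8 of 9. The summed list had 77169 and 64437 CPM in WT, 54400 to 74961 CPM in YAP3d and 58501, 52526 and 60228 CPM in YAP7d, which lay below WT without overlap. The invariant chain gene Cd74, which chaperones class II molecules, had 42795 and 37674 CPM in WT, 30070, 35836, 44276 and 31902 CPM in YAP3d and 33617, 29929 and 34132 CPM in YAP7d. YAP7d lay below WT without overlap by a log2 difference of -0.37 ± 0.29 (edgeR adjusted p 1, 95% interval -1.01 to 0.26), an interval that includes both signs. H2-Aa had 15876 and 13423 CPM in WT and 11965, 10399 and 12311 CPM in YAP7d, also without overlap, with -0.38 ± 0.31 (95% interval -1.04 to 0.29). H2-Eb1 and the peptide exchange factor gene H2-DMa differed from WT by -0.19 and -0.08.

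Genes of antigen processing did not pass either. The 13 genes of the antigen processing list were all tested and 0 passed, with medians of 0.16, 0.32 and -0.24 in the 3 comparisons (0.45, 0.35 and 0.0042 without the cells that stood apart). Cst3, an inhibitor of cysteine cathepsins and a well-known dendritic cell transcript, had 6316 and 7625 CPM in WT, 2391, 3706, 7619 and 8424 CPM in YAP3d and 4549, 2513 and 3854 CPM in YAP7d. YAP7d lay below WT, by -1.22 ± 0.47 (edgeR adjusted p 0.955). The saposin precursor gene Psap had 1310 and 2240 CPM in WT and 1311, 1107 and 1213 CPM in YAP7d (-1.04 ± 0.33, edgeR adjusted p 0.652), and WT replicate 1 was level with YAP7d replicate 1. Ifi30, the thiol reductase gene of the class II pathway, went the other way with 859 and 502 CPM in WT and 950, 1038 and 863 CPM in YAP7d (0.74 ± 0.38). Of the MHC class I list 17 of 19 genes were tested, 0 passed, and the medians were -0.27, 0.05 and -0.30 (-0.14, -0.07 and -0.18 without those cells).

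Identity genes did not pass the test in any comparison either. Of the cDC2 identity list 17 of 22 genes were tested, with medians of -0.17, -0.09 and -0.09 (0.24, 0.08 and -0.19 without the cells that stood apart). Itgax had 301 and 222 CPM in WT, 290, 206, 269 and 98.0 CPM in YAP3d and 104, 115 and 118 CPM in YAP7d, a log2 difference from WT of -1.14 ± 0.49 without overlap. Napsa, an aspartic protease gene of antigen-presenting cells, and Spi1, which encodes the myeloid factor PU.1, differed from WT by 0.08 and -0.14 in YAP7d. The monocyte-derived list had 13 of 16 genes tested and medians of 0.33, 0.02 and 0.19 (0.94, 0.33 and 0.28 without those cells). Its summed level was 4683 and 5723 CPM in WT, 3478, 9785, 4103 and 4596 CPM in YAP3d and 7407, 6664 and 5421 CPM in YAP7d, which overlapped. Lyz2 differed between YAP7d and WT by -1.30 ± 0.43 (edgeR adjusted p 0.721) and by 0.59 when the cells that stood apart were left out, so its direction rested on them.

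Irf8, the transcription factor that sets cDC1 fate and is low in type 2 cells, had 21.5 and 206 CPM in WT, 72.5, 86.7, 24.4 and 147 CPM in YAP3d and 28.1, 23.1 and 46.2 CPM in YAP7d. WT replicate 1 lay below YAP7d, and the difference of -2.68 ± 0.69 (edgeR adjusted p 0.467) compares YAP7d with WT replicate 2. The heat shock gene Hspa1a had 43.0 and 2273 CPM in WT and 613, 46.1 and 5.14 CPM in YAP7d, and its difference of -3.36 ± 1.05 (edgeR adjusted p 0.589) likewise compares YAP7d with WT replicate 2. The immediate early and heat shock list, which rises when tissue is digested, had 23 of 23 genes tested, 0 called and medians of -0.59, -0.03 and -0.52. Its summed level was 13363 and 21221 CPM in WT, 15651 to 25313 CPM in YAP3d and 14412 to 18378 CPM in YAP7d, and its part in the other differences was not tested.

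Maturation genes were dominated by a few cells of YAP3d replicate 4. The mature DC list summed to 859 and 972 CPM in WT, 652, 1051, 635 and 8588 CPM in YAP3d and 1191, 738 and 1207 CPM in YAP7d. Leaving out the cells that stood apart lowered YAP3d replicate 4 to 3823 CPM, which was still the highest library. Among the cells then left in it, 1 held 139 UMIs of the list, with 68 of Ccl17 and 16 of Ccl22. With 15 of 24 genes tested and 0 called, the median was 0.87 between YAP7d and WT, 2.63 between YAP3d and WT and -1.76 between YAP7d and YAP3d, and 0.19, 1.19 and -1.03 without those cells. Cd83, a maturation glycoprotein gene, had 849 CPM in YAP3d replicate 4 and 72.5 to 236 CPM elsewhere, and still had 727 CPM without the cells that stood apart. Ccl5 had 2857 CPM there and 21.5 to 228 CPM elsewhere, but 340 of its 350 UMIs lay in those cells and 158 CPM remained without them. After thinning to 2000 UMIs per cell, 3 or more genes of the list were detected in 10 of 13 members of that library, in 3 of 12 of WT replicate 2, in 3 of 9 and 0 of 8 of YAP3d replicates 2 and 3 and in 4 of 22, 0 of 5 and 5 of 20 of YAP7d, where a count of 0 allows up to 37.5% of 8 cells and up to 60% of 5. The share in C1q-high cells, which serve as a background, was 17.5 to 43.8%. Members lay above the C1q-high cells of their own library in YAP3d replicate 4 (76.9 against 41.5%) and replicate 2 (33.3 against 20.3%), and at or below them in WT and in YAP3d replicate 3, while YAP7d stood at 18.2, 0 and 25% against 17.5, 22.5 and 21.7%. Over libraries with at least 5 members the share was 25% in WT, which was WT replicate 2 alone, and averaged 36.8% for YAP3d and 14.4% for YAP7d. YAP7d and YAP3d differed by -22.4 points (exact permutation p 0.5, smallest possible 0.1). No direction against WT can be read, since YAP7d minus WT was -10.6 points with WT replicate 2 and 1.89 points with both WT libraries (exact permutation p 0.75 and 1). Without the cells that stood apart 6 of 8 members of YAP3d replicate 4 showed 3 or more of the genes. Without thinning, 60 to 100% of members in a library showed 3 or more of these genes.

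Interferon and cytokine genes did not pass the test either. The type I interferon list had 13 of 22 genes tested, 0 called and medians of -0.01, -0.12 and -0.09 (0.78, 0.38 and -0.02 without the cells that stood apart), with a summed level of 2771 and 2718 CPM in WT, 1641 to 3110 CPM in YAP3d and 1038 to 3002 CPM in YAP7d. Isg15 had 129 and 115 CPM in WT, and its highest value was 368 CPM in YAP3d replicate 2. In the interferon-gamma list 1 of 16 genes reached the filter, Irf1, with 64.5 and 107 CPM in WT, 0 to 97.7 CPM in YAP3d and 104, 184 and 247 CPM in YAP7d (1.23 ± 0.46 between YAP7d and YAP3d, edgeR adjusted p 0.746). Il1b, the inflammasome-processed cytokine gene, had 1611 and 898 CPM in WT, 1594, 401, 501 and 669 CPM in YAP3d and 770, 115 and 1033 CPM in YAP7d. It overlapped in every comparison, as did the chemokine gene Ccl4 with 72.5 to 2882 CPM. Of known YAP targets 9 of 13 had a UMI in members and 2 passed the filter on low counts, Axl and Birc5, with neither called.

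The remaining lists are given by their counts. The lectin and pattern receptor list had 4 of 18 genes tested and medians of 0.41, 0.25 and -0.10 (0.61, 0.69 and 0.02 without the cells that stood apart), the cytokine and chemokine list 11 of 22 genes and -0.49, -0.22 and 0.16 (0.45, 0.11 and 0.02 without those cells, 0.28, 0.12 and 0.19 with all 9 libraries), and the cytokine and chemokine receptor list 14 of 22 genes and -0.01, 0.18 and -0.42 (0.19, 0.48 and -0.31 without those cells). The lipid-associated list had 8 of 12 genes tested and medians of 0.26, 0.86 and -1.01, which were -0.02, 0.10 and -0.13 over the 2 genes that passed the filter without the cells that stood apart. Its summed level in YAP3d replicate 4 was 2857 CPM with these cells and 885 CPM without them. Glycolysis had 11 of 15 genes tested and medians of 0.32, 0.05 and 0.14 (0.36, 0.25 and 0.11 without the cells that stood apart). Oxidative phosphorylation had 47 of 47 and -0.04, -0.12 and 0.09 (0.03, -0.11 and 0.13 without those cells). In each of these lists 0 genes were called. Pyruvate kinase (Pkm) had 193 and 214 CPM in WT and 286 to 650 CPM in YAP3d and 461, 497 and 498 CPM in YAP7d, with YAP7d above WT (1.03 ± 0.48 between YAP7d and WT, edgeR adjusted p 1). Of the 35 Pkm UMIs in YAP3d replicate 4, 27 lay in cells that stood apart, and without them that library had 126 CPM, below both WT libraries.

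Proliferation genes were found in members of all 3 groups. The proliferation list had 19 of 46 genes tested, 0 called and medians of -0.48, -0.63 and 0.13 (-0.52, -0.31 and 0.04 over 13 genes without the cells that stood apart, -0.21, -1.02 and 0.46 over 10 genes with all 9 libraries). Of the members 19 had 10 or more genes of this list, 3 of 16 in WT, 3 of 32 in YAP3d and 13 of 47 in YAP7d. These held 17.7 to 220 UMIs of the list per 10000, with a median of 96.1 against 20.4 in the other 76, and the cut was made at full depth. Mki67, the proliferation antigen gene, had 85.9 and 107 CPM in WT, 0, 32.5, 244 and 0 CPM in YAP3d and 100, 69.2 and 46.2 CPM in YAP7d, with WT and YAP7d overlapping. In 5 of the libraries the level rested mainly on 1 cell, which held 4 of 4 and 12 of 13 Mki67 UMIs in WT, 3 of 3 and 17 of 20 in YAP3d replicates 2 and 3 and 3 of 3 in YAP7d replicate 2. After thinning, 3 or more of the genes were found in 66.7% of members in WT replicate 2, 44.4, 50 and 46.2% in YAP3d replicates 2 to 4 and 50, 60 and 75% in YAP7d. The means of YAP7d and YAP3d, 61.7 and 46.9%, differed by 14.8 points (exact permutation p 0.2, smallest possible 0.1), and 26.5 points with all 9 libraries (exact permutation p 0.0857, smallest possible 0.0286). Against WT replicate 2 alone YAP7d differed by -5.00 points and YAP3d by -19.8 points (exact permutation p 0.75 and 0.25, smallest possible 0.25). With WT replicate 1, where 2 of 4 members showed the genes, these were 3.33 and -23.2 points, so that no direction can be read for YAP7d. In C1q-high cells the share was 28.8% in WT replicate 2, 35.4 to 65.0% in the same YAP3d libraries and 68.6 to 79.5% in YAP7d.

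Whether dendritic cells responded differently from macrophages and monocytes was tested directly, as the difference between the log2 change from WT to YAP7d in members and that in the other class, with the library as a block. WT replicate 2 was again the 1 WT library with enough cells. Members needed at least 5 UMIs of H2-Ab1, whereas the other classes had no such floor. A cell that lost MHC class II transcripts could therefore leave the members but not the other classes. The part of this in the differences of class II genes was not tested. Against C1q-high cells 1 of 5786 genes (0.0173%) differed. Fgfr1, a fibroblast growth factor receptor gene, had 21.5 and 82.3 CPM in WT, 0, 65.0, 61.1 and 32.7 CPM in YAP3d and 52.1, 115 and 113 CPM in YAP7d members, which overlapped. In C1q-high cells it had 10.3 and 118 CPM in WT and 2.60, 4.63 and 8.64 CPM in YAP7d. The difference between the changes was 4.53 ± 0.75 (edgeR adjusted p 0.0342), and 4.36 (edgeR adjusted p 0.155) when libraries with at least 1 cell of both classes entered. WT replicate 1, at 10.3 CPM, was close to YAP7d, so that the fall in C1q-high cells (edgeR adjusted p 0.0315) was a fall from WT replicate 2.

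Against monocyte-rule cells 6 of 4843 genes (0.124%) differed, 2 with a positive and 4 with a negative difference, in a fit that YAP3d replicate 3 did not enter either. S100a4 was higher by 1.53 ± 0.33 (edgeR adjusted p 0.0357), since monocyte-rule cells already had 1554 CPM in WT replicate 2 and reached 1643 to 2385 CPM in YAP7d. H2-DMb2, a subunit of the class II peptide exchange factor, was higher by 2.47 ± 0.53 (edgeR adjusted p 0.0357): it stood at 580 and 511 CPM in WT and 236, 115 and 452 CPM in YAP7d members, while monocyte-rule cells had 144 CPM in WT replicate 2, 0 CPM in WT replicate 1 and 8.1, 6.0 and 21.9 CPM in YAP7d. Ear2, a ribonuclease gene of myeloid cells, differed by -4.10 ± 0.68 and the DNA-damage histone gene H2afx by -4.06 ± 0.91. In members Ear2 had 20 UMIs in WT replicate 2 and 0 in WT replicate 1, and H2afx 20 and 1. The WT values of both overlapped YAP7d. Hist1h2ap differed by -7.52 ± 0.93 and the Notch target gene Hes1 by -3.98 ± 0.87. They had 642 and 148 CPM in members of WT replicate 2 and 0 CPM in WT replicate 1. The WT level of all these genes in members thus rested on WT replicate 2. The difference of Hes1 was 0.065 without the cells that stood apart. With libraries of at least 1 cell, which brought in WT replicate 1, Hist1h2ap and Ear2 were the 2 that differed.

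The class II chains had positive differences against both classes in these fits without passing. Because only members had a floor on H2-Ab1, these differences are partly open to the selection and are given as a description. The change of Cd74 in members exceeded that in C1q-high cells by 1.0 (95% interval -0.06 to 2.06, edgeR adjusted p 0.863) and that in monocyte-rule cells by 1.08 (0.55 to 1.61, edgeR adjusted p 0.0846). C1q-high cells had 11678 and 8557 CPM of Cd74 in WT and 3799, 2364 and 5023 CPM in YAP7d, without overlap, while members had 29929 to 44276 CPM in all 9 libraries. For H2-Eb1 the values were 1.01 (edgeR adjusted p 0.863) and 1.42 (edgeR adjusted p 0.0879), and for H2-Aa 0.84 against either class (edgeR adjusted p 0.884 and 0.579). Without the cells that stood apart, Cd74 (1.16, edgeR adjusted p 0.00051) and H2-Eb1 (1.5, edgeR adjusted p 1.9e-05) passed against monocyte-rule cells and H2-Aa (0.89, edgeR adjusted p 0.0833) did not. In monocyte-rule cells Cd74 had 754 CPM in WT replicate 1 and 7430 CPM in WT replicate 2, so the WT level of that class was uncertain, and with all libraries the differences were -0.34 for Cd74 (edgeR adjusted p 0.966), 0.13 for H2-Eb1 and -0.45 for H2-Aa.

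**Figure D5:**
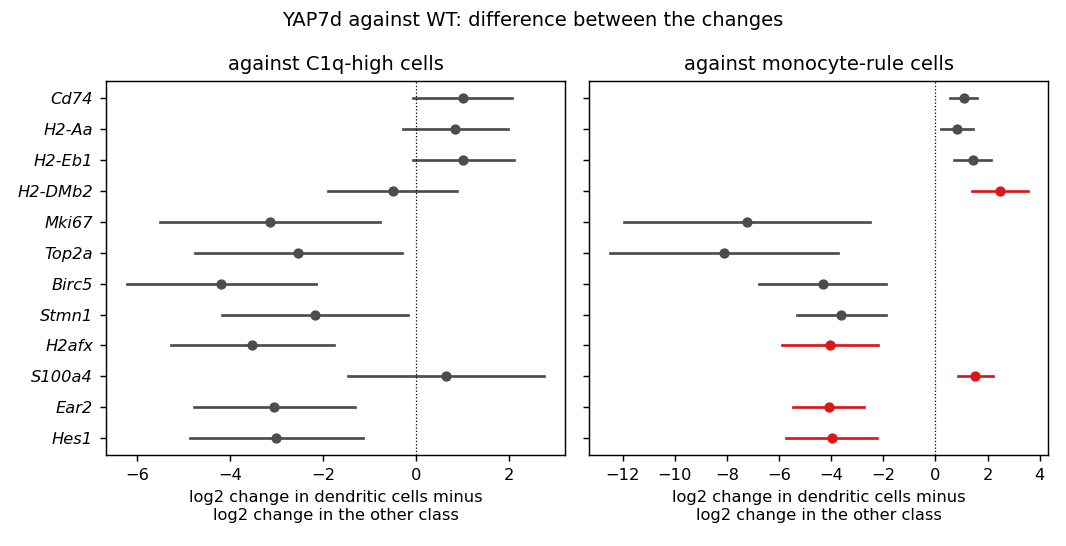
Difference between the log2 change from WT to YAP7d in dendritic cells and that in C1q-high cells (left) or monocyte-rule cells (right) for 12 genes, with 95% intervals from edgeR and red points for an adjusted p below 0.05. Class II genes lay to the right of 0 against monocyte-rule cells and cell-cycle genes to the left against both classes. The floor on H2-Ab1 applied to the dendritic cells only. Monocyte-rule cells had 0 CPM of Mki67 and Top2a in WT, so these 2 fitted values depend on the prior count.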

How the data were processed

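Liver cells of 9 libraries were profiled with Chromium single-cell RNA-seq (the v2 kit for these whole-liver libraries, according to the methods of the study). The authors aligned reads to mm10 and counted them with Cell Ranger (the labels also name Seurat 2), and deposited whole-number UMI counts of 27998 genes in 8562 cells, with the library in each cell name. Groups came from the sample titles. The members and gene lists were chosen with earlier results of these data known. Shares were compared with exact two-sided permutation tests (scipy 1.17.1). Counts were summed over members per library with at least 5 members, filtered with filterByExpr, scaled with TMM and fitted over the 3 groups in R 4.3.3 by quasi-likelihood (edgeR 4.0.16), with Benjamini-Hochberg adjustment over all genes tested and a threshold of 0.05. DESeq2 1.42.0 was the second tool. Differences between classes were fitted with the library as a block. The fit was tested on simulated data. Scrublet (scanpy 1.11.5, expected rate 0.05) marked doublets, which were kept. Plain CPM of member UMIs is printed, with SD, and log2 differences with SE. Genes named are up to 5 with the smallest p per comparison where fewer than 5 passed, list members with the highest mean, and the 15 with the largest ratio to other cells at 50 CPM or more. Ccr7, Csf1r, Dcn, Hspa1a, Irf4, Lgals3, Mki67, S100a6, Top2a and Zbtb46, and the genes that mark the cells standing apart, were chosen after their values were seen. Symbols were placed with RefSeq GRCm38.p6. Replicate numbers are not stated to pair libraries. Alternatives were other member thresholds, thinning, filters, libraries, tools and a replicate block.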

Additional observations from a re-analysis of the deposited data

Results flagged for a closer look

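In 18 of 113 gene levels tested within a group of 4 libraries, the highest library stood apart from the others by more than Dixon's 95% critical value, where chance gives about 1 in 20. The genes included some chosen after their values were seen (Ccr7, Dcn, Lgals3, Mki67 and Top2a among the 18), so the count is a description and not a comparison with that rate. All were in YAP3d, the only group of that size. In YAP3d replicate 4 these were AW112010 (865 CPM), Ccl5 (2857), Clec4g (343), Ccl17 (580), Ccr7 (947) and Dcn (1657). The cells described as standing apart held 97 of 106 UMIs of AW112010, 340 of 350 of Ccl5, 36 of 42 of Clec4g, 116 of 116 of Ccr7 and 203 of 203 of Dcn. Of the Ccl17 UMIs 68 of 71 lay in 1 other member. In YAP3d replicate 2 they were Ifitm3 (4140 CPM), Psmb8 (986), Isg15 (368) and Lgals3 (2189). In YAP3d replicate 3 they were Hist1h2ap (208 CPM), Stmn1 (537), Epcam (269), Mki67 (244) and Top2a (269), and 1 cell held 17 of 20 UMIs of Mki67, 20 of 22 of Top2a and 415 of 535 of the proliferation list. In YAP3d replicate 1, with 2 member cells, they were Rpl27-ps3 (435 CPM), Tacc1 (217) and Ccl6 (652).

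In 7 genes the change from WT to YAP7d in members differed by an edgeR interaction test from that in another class. Against C1q-high cells this was Fgfr1, with a log2 difference of 4.53. Against monocyte-rule cells these were Hist1h2ap (-7.52), Ear2 (-4.10), H2-DMb2 (2.47), S100a4 (1.53), Hes1 (-3.98) and H2afx (-4.06). Each compares the YAP7d libraries with WT replicate 2 alone. H2-DMb2 is also a class II gene, and only members had a floor on H2-Ab1.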

How the results depend on the processing

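The shares kept their direction with a marker sum of at least 3 and with H2-Ab1 of at least 10 UMIs. They also kept it after thinning and in cells with 500 or more genes and at most 10% mitochondrial counts. Shares under a rule without any monocyte gene were not computed. The phagocyte denominator turned YAP7d minus WT to -4.60 and YAP7d minus YAP3d to -6.52 points. Leaving out 1 library in turn gave 0.28 to 1.57 points for YAP7d minus WT, 0.231 to 0.740 for YAP3d minus WT and -0.201 to 1.09 for YAP7d minus YAP3d, the lowest without YAP7d replicate 1. For mature genes the ranges were -15.9 to -3.41, -8.33 to 30.1 and -40.7 to -2.27 points, and for proliferation genes -11.7 to 0.833, -21.4 to -18.6 and 8.13 to 20.6; -8.33 arose without YAP3d replicate 4 and 0.833 without YAP7d replicate 1. With all 9 libraries YAP7d minus WT turned to 1.89 points for mature and 3.33 for proliferation genes. Without thinning, proliferation gave 0 points for YAP3d minus WT and -8.33 for YAP7d minus YAP3d.

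Counts of called genes (YAP7d against WT, YAP3d against WT, YAP7d against YAP3d) were 0, 0 and 0 as reported, 23, 6 and 66 with no filter on low counts, 3, 8 and 38 with at least 10 members per library (WT and YAP3d are then 1 library each, the latter YAP3d replicate 4 with 5 of the 9 cells that stood apart), and 34, 0 and 12 with members called on 2000 UMIs and levels from the held-out UMIs; DESeq2 gave 2 in the last comparison. With a replicate block they were 65, 27 and 36. The replicate numbers do not pair the libraries by their labels, and correlations of same-numbered libraries stayed below 0.1. Leaving out 1 library gave 0 to 2, 0 and 0 to 7 in the 7 libraries and 0 to 3, 0 to 1 and 0 to 11 when all 9 were the start, with 7 and 11 both arising without YAP3d replicate 2. Differences between classes numbered 14 (C1q-high) and 16 (monocyte-rule) with no filter, 0 and 2 with libraries of at least 1 cell, 3 and 20 without the cells that stood apart, 5 against monocyte-rule cells with DESeq2 size factors, and 0 to 40 and 2 to 19 leaving out 1 library. Against C1q-high cells, 40 arose without YAP3d replicate 3, 5 without YAP3d replicate 2, 2 without YAP3d replicate 4 and 0 without any of the YAP7d libraries; against monocyte-rule cells, 19 arose without YAP3d replicate 2 or 4, 2 without YAP7d replicate 2 and 3 without YAP7d replicate 3. Hist1h2ap reversed between YAP7d and WT to 1.27 with a Gm10709 term, 3.18 on held-out UMIs and 3.51 with all 9 libraries but WT replicate 2, and between YAP3d and WT to 3.12 and 5.86 in the last 2; Hes1 against monocyte-rule cells turned to 0.065 without the cells that stood apart. The cause was not tested. A rule without any monocyte gene left 21 cells in too few libraries and could not be fitted.

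The limits are 95 cells, 1 WT library in the gene fits, and member sums of 43369 to 249485 UMIs in the libraries that entered, at which a log2 change of 1 was mostly missed. Intervals and limits of a count of 0 cover counting error only.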
